A study of Mus musculus with 3 samples.

Results

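Fc receptors bind the constant part of antibodies. The 8 genes described here were Fcgr1, Fcgr3, Fcgr4, Fcgr2b, Fcer1g, Fcer1a, Ms4a2 and Fcgrt, matched by symbol among the 32285 genes counted in single-cell RNA-Seq of mouse lung. Their transcripts, counted as unique molecular identifiers (UMIs), were summed per library and cell class, and in the transplants they were set beside 9 isotype control antibodies out of 277 antibody features. There were 3 libraries, each 1 pool of cells from 2 mice and labelled C57BL/6J (B6), while the methods list the CD45.1 mice separately, as a congenic strain. Untransplanted left lungs gave the naive library. The other two came from left lung grafts of B6 (CD45.2) donors in B6 (CD45.1) recipients after 2 hours or 3 days of reperfusion, and every graft had been stored for 60 minutes at 4 °C and 45 minutes at 28 °C. The methods give recipient (CD45.1) cells as the sorted population without a separate gate for the naive lungs, which have no recipient, so the gate of the naive library is not settled here. The methods give 1 age range for all mice of the study, young adults.

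In mice, Fcgr1, Fcgr3 and Fcgr4 encode activating receptors for IgG, which signal through the γ chain encoded by Fcer1g. The γ chain carries an activation motif, is needed for these receptors to reach the surface, and also serves other receptors, including natural cytotoxicity receptors of NK cells and C-type lectins of myeloid cells. Fcgr2b encodes the inhibitory IgG receptor, which recruits the phosphatase encoded by Inpp5d and is the IgG receptor of B cells. Fcer1a and Ms4a2 encode the α and β chains of the high-affinity IgE receptor of basophils and mast cells. Fcgrt encodes the heavy chain of FcRn, which pairs with the product of B2m, recycles IgG and albumin and is related to MHC class I. Monocytes, macrophages and neutrophils use the IgG receptors to take up and respond to immune complexes.

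The promoters of 5 members are shown, those whose windows held a motif marked here. They were not chosen by level, and the motifs were chosen with the sequences seen. The Fcgr genes shown were read mainly in monocyte-like, macrophage-like or neutrophil-like cells, and the IgE receptor chains in basophil-like cells. Each line is the 250 bases before a RefSeq transcription start on GRCm38.p6, 5′ to 3′ on the gene's strand. Capitals mark GAGGAA, a core bound by the myeloid factor PU.1, or AGATAA, a core bound by GATA factors, read on either strand, so that TTCCTC and TTATCT are marked as well.
Fcgr1, chr3:96293970-96294219, minus strand: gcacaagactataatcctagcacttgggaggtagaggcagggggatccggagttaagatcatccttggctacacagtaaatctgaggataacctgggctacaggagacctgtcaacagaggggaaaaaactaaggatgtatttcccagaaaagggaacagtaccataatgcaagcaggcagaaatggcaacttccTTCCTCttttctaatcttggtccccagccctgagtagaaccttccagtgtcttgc
Fcgr3, chr1:171059395-171059644, minus strand: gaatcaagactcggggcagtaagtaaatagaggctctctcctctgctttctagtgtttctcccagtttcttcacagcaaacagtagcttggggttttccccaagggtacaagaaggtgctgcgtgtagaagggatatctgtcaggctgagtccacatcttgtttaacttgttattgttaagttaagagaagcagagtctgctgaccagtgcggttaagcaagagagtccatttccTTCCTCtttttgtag
Fcgr4, chr1:171018676-171018925, plus strand: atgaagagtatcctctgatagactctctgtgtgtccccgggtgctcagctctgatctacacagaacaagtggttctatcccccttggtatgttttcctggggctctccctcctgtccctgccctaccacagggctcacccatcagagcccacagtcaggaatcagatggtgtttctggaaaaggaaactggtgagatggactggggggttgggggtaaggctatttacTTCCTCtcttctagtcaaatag
Fcer1a, chr1:173227230-173227479, minus strand: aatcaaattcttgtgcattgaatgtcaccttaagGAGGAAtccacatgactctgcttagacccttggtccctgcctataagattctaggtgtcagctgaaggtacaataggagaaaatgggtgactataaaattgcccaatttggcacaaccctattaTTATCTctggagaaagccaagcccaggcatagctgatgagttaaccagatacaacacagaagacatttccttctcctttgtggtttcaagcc
Ms4a2, chr19:11623720-11623969, minus strand: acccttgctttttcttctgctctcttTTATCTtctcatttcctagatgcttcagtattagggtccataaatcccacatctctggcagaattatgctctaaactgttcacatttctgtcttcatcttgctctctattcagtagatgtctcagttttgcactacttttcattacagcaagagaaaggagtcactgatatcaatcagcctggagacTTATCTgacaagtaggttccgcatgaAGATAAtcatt

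In these windows GAGGAA lay 55 to 50 bases before the start of Fcgr1 and 22 to 17 bases before that of Fcgr4. It lay 15 to 10 bases before the Fcgr3 start shown and 6 to 1 bases before another RefSeq start of Fcgr3. Each of these was on the other strand. Both Fcgr3 starts lie inside the GENCODE span of Fcgr3 given below. Fcer1a held GAGGAA farther upstream, 216 to 211 bases before its start. The motif occurred in 23.3% of 32851 RefSeq promoter windows of this length. AGATAA occurred in 9.99% of them, 1 time in the Fcer1a window and 3 times in that of Ms4a2. The windows of Fcgr2b, Fcer1g and Fcgrt held neither motif. These are matches of letters and say nothing of binding. In GENCODE annotation of GRCm38, Fcgr2b (chr1:170958617-170976547), Fcgr4 (chr1:171018920-171029761), Fcgr3 (chr1:171051174-171064935) and Fcer1g (chr1:171229572-171234365) follow each other on chromosome 1, with Fcer1a (chr1:173221284-173227214) on the same chromosome. Fcgr1 lies at chr3:96282909-96293969, Fcgrt at chr7:45092990-45103851 and Ms4a2 at chr19:11615523-11623719.

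After the filters of the methods 2422 naive cells, 10283 cells of 2 hours and 8324 cells of 3 days remained, at medians of 7298.5, 878 and 5716.5 UMIs per cell. Clusters were made without the 8 genes and called "-like" after fixed marker lists, because no annotation of the cells was used here. Most clusters held cells of 1 library, so a class was usually made of different clusters in each library. Neutrophil-like cells were naive cluster 16, then clusters 0, 5 and 17 in the 2-hour graft and 1 and 22 in the 3-day graft. B cell-like cells were clusters 11, 4 and 3, NK cell-like cells clusters 12, 6 and 20, and T cell-like cells cluster 10, clusters 2 and 18, and clusters 8 and 19. Monocyte-like cells came from parts of cluster 13 at 2 hours and from clusters 7 and 14 at 3 days. Of the 76 naive nonclassical monocyte-like cells, 16 were a subcluster led by S100a8, S100a9, Retnlg and Il1r2, genes of neutrophils, whereas a subcluster of 104 cells at 2 hours that was also led by S100a8 was left unnamed. Without the 16 cells the naive nonclassical levels were 328 CPM of Fcgr4, 149 CPM of Fcgr3, 48.7 CPM of Fcgr2b, 45.5 CPM of Fcgr1 and 1948 CPM of Fcer1g, each within the counting interval of the value given below. The split between Arg1 and C1q macrophage-like cells at 3 days, 634 and 162 cells, was less firm. At a clustering resolution of 0.4 both fell into 1 class of 828 cells, and of the 634 cells 133 kept their name when each cell was named alone, when 547 cells were C1q macrophage-like. In classes of at least 50 cells with a marker list of their own, every listed gene was detected, except that Prss34 was at 0 in basophil-like cells at 2 hours. Libraries shared 1 to 23 cell barcodes in pairs, and the 3 libraries had 40, 403 and 277 called doublets, which were kept except where stated. With 1 library per condition there is no test across mice, so every ratio below compares 2 libraries and not 2 conditions. Intervals are 95% and cover counting error only, exact Poisson for sums, Clopper-Pearson for shares, and conditional on the total count for ratios. Levels are CPM (counts-per-million), the UMIs of a gene scaled to the sum of all gene UMIs of the class in that library. A lower level could be fewer expressing cells or less RNA per cell. The naive library was made with Cell Ranger 7.1.0 and the others with 6.0.0, and the sources used here do not give the setting for intronic reads. Gab2, a gene of long introns, read 1232 CPM in naive neutrophil-like cells against 64.0 and 43.1 CPM in the transplants, so naive levels are given beside the others without a fold, and a difference from the naive library cannot be told apart from that of the software.

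T cell-like cells, which should lack most of these transcripts, served as the reference level. What gave rise to their counts was not measured, as no empty droplets were analysed here. A pair of a member and a class was counted where its Poisson interval lay wholly above that of T cell-like cells of the same library. This held for 100 of 192 pairs, over 24 classes of at least 50 cells in the libraries. The same count was not made over all genes, so it cannot show anything particular to these members. In T cell-like cells Fcgr3 read 4.63, 12.1 and 17.8 CPM in the naive, 2-hour and 3-day libraries, and Fcer1g read 37.0, 92.2 and 143 CPM. Both were higher in the transplants. Fcgr4 read 1.2, 4.56 and 26.6 CPM there. In other analyses the 3-day levels ran from 9.92 to 28.1 CPM of Fcgr3 and 71.6 to 225 CPM of Fcer1g. That of Fcgr4 ran from 5.90 to 41.9 CPM. Fcgrt read 7.03, 2.93 and 22.9 CPM in T cell-like cells. At 3 days neutrophil-like and NK cell-like cells stood at 0.0836 (0.0513 to 0.130) and 0.132 (0.0478 to 0.291) of that level. For Fcgrt the T cell-like level was therefore no floor, and its subtraction is no correction for background. In the main clustering B cell-like cells at 3 days also lay below T cell-like cells for other members, with intervals under 1. The ratios were 0.268 for Fcgr4, 0.394 for Fcgr1, 0.460 for Fcer1g and 0.694 for Fcgr3. For these members too the T cell-like level was no floor.

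**Figure D1:**
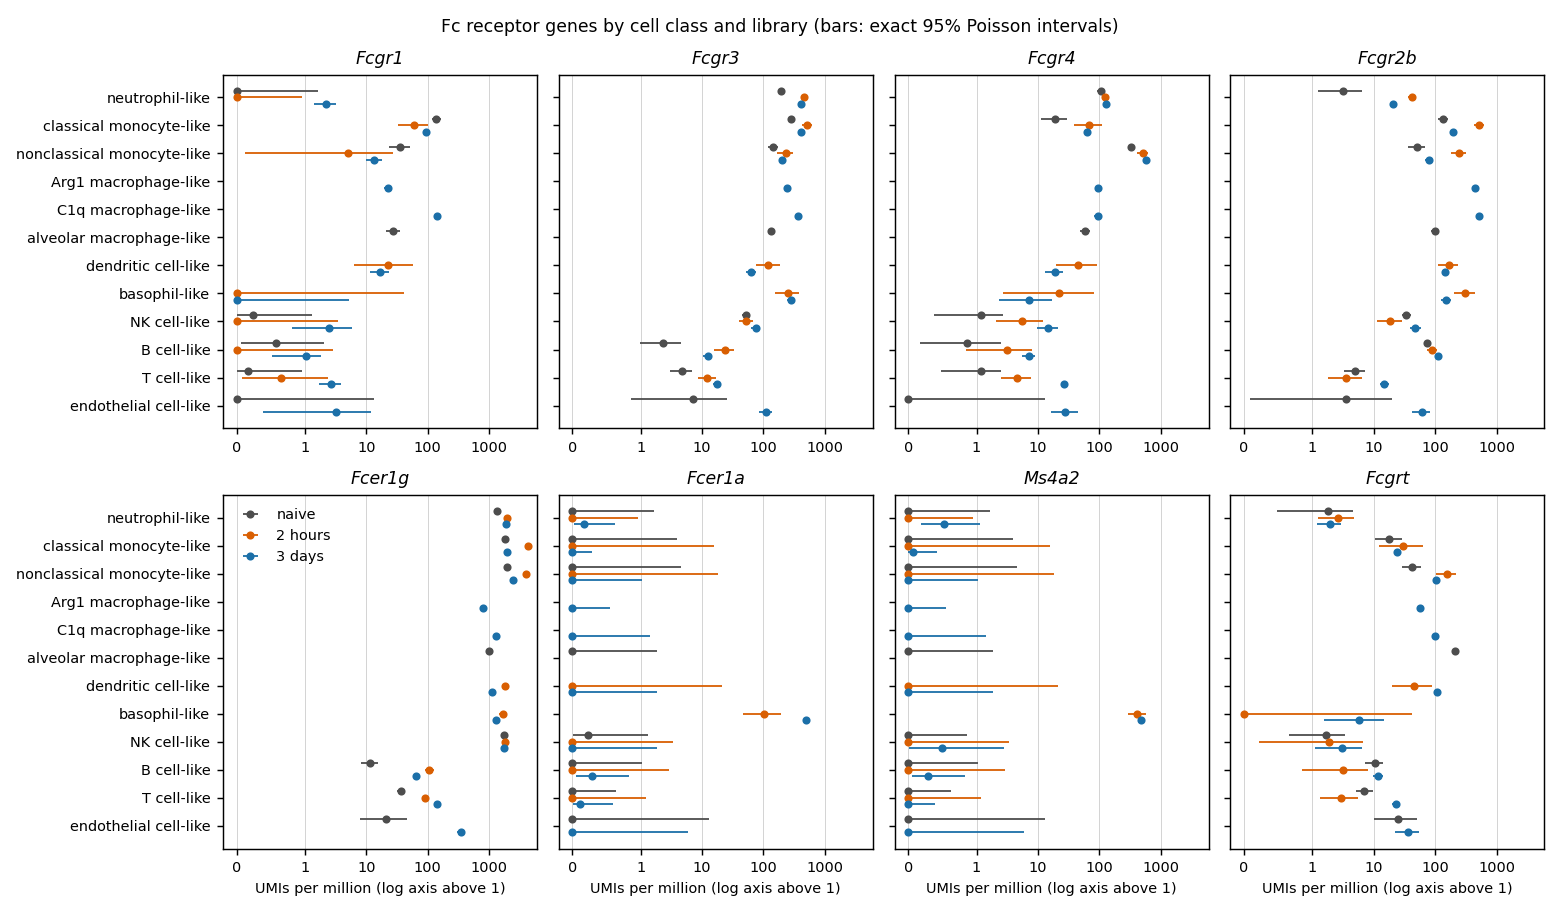
Levels of the 8 Fc receptor genes in 12 cell classes. Each panel is 1 gene, with CPM on the x axis (logarithmic above 1), points colored by library and bars of exact 95% Poisson intervals, for classes of at least 50 cells. Fcer1a and Ms4a2 stood at 101 to 501 CPM in basophil-like cells and under 1 CPM in every other class shown, whereas Fcer1g exceeded 800 CPM in all myeloid and NK cell-like classes.

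Fcer1g, the shared γ chain, was read in every myeloid class and in NK cell-like cells. In neutrophil-like cells it stood at 1370, 1951 and 1885 CPM in the naive, 2-hour and 3-day libraries, and in NK cell-like cells at 1735, 1788 and 1758 CPM. In the main clustering these NK cell-like levels lay within a narrow range although the median depth of the cells differed between libraries. Of the 1050 NK cell-like cells at 2 hours, 496 kept their name when each cell was named alone. In other analyses Fcer1g ran from 1696 to 2562 CPM there. It ran from 1696 to 2079 CPM in naive NK cell-like cells and from 1616 to 2206 CPM in those of 3 days. Classical monocyte-like cells read 1791, 4322 and 1990 CPM and nonclassical monocyte-like cells 1933, 3981 and 2445 CPM, so that both were higher at 2 hours than in the other two libraries. The order at 3 days ran from nonclassical to classical monocyte-like, neutrophil-like and NK cell-like cells, each apart from the next by counting error, and then to C1q macrophage-like cells at 1296 CPM and basophil-like cells at 1279 CPM, which were not apart. Dendritic cell-like cells (1101 CPM) and Arg1 macrophage-like cells (812 CPM) followed. Naive alveolar macrophage-like cells, seen only in that library in the main clustering, read 1016 CPM. At 3 days 97.8% of neutrophil-like cells had an Fcer1g UMI against 25.2% of T cell-like cells, whose median depths were 4426 and 8371 UMIs. At 2 hours the shares were 71.1% and 5.01%, at 751 and 1127 UMIs. Thinned to 500 UMIs per cell, which left out 340 of the 4397 neutrophil-like cells at 2 hours and none at 3 days, the neutrophil-like shares were 58.2% at 2 hours and 59.1% at 3 days, and those of T cell-like cells were 2.11% and 4.85%. Endothelial cell-like cells, a type not known for this gene, read 345 CPM at 3 days. Their neutrophil marker list summed to 14308 CPM there with 7 of 8 genes detected and Ly6g at 0, against 171 CPM in the naive library with Cxcr2 and Ly6g at 0, and its part in that level was not tested.

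Fcgr3 encodes the low-affinity activating receptor FcγRIII. Its level in neutrophil-like cells was 195, 449 and 414 CPM in the naive, 2-hour and 3-day libraries, and in classical monocyte-like cells 285, 508 and 406 CPM. Both transplant values lay above the naive one in either class. At 3 days neutrophil-like and classical monocyte-like cells were not apart, and C1q macrophage-like cells (366 CPM), basophil-like cells (284 CPM), Arg1 macrophage-like cells (238 CPM) and nonclassical monocyte-like cells (200 CPM) followed in that order, each apart from the next. At 2 hours classical monocyte-like cells again did not stand apart from neutrophil-like cells, nor basophil-like (247 CPM) from nonclassical monocyte-like cells (228 CPM). NK cells use FcγRIII for antibody-dependent killing, and NK cell-like cells read 52.0, 52.9 and 75.2 CPM, 11.2, 4.38 and 4.23 times the T cell-like level of the same library. In B cell-like cells of the main clustering the level was below that of T cell-like cells at 3 days, with a ratio of 0.694 (0.547 to 0.877). At 2 hours it was above the T cell-like level (1.95, 1.16 to 3.24), and in the naive library it was not apart (0.496, 0.195 to 1.12). Of neutrophil-like cells, 29.1% had an Fcgr3 UMI at 2 hours and 74.8% at 3 days, against 1.21% and 8.75% of T cell-like cells at the depths given above. After thinning the neutrophil-like shares were 19.3% and 17.3%, and those of T cell-like cells were 0.447% and 0.475%, so the difference between the libraries in the unthinned shares was not seen at equal depth.

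Fcgr4 encodes FcγRIV, an activating receptor for IgG2a and IgG2b. Nonclassical monocyte-like cells stood first in every library, at 330, 511 and 569 CPM, and apart from neutrophil-like cells, which were second at 106, 125 and 126 CPM. Classical monocyte-like cells read 19.1, 68.9 and 63.4 CPM. At 3 days C1q and Arg1 macrophage-like cells read 94.4 and 94.0 CPM and were not apart. In that library 91.0% of nonclassical monocyte-like cells, at a median of 7069 UMIs, had an Fcgr4 UMI, against 6.27% of T cell-like cells, and after thinning 26.4% against 0.665%. In the main clustering NK cell-like cells (14.5 CPM) and B cell-like cells (7.12 CPM) lay below the T cell-like level of 26.6 CPM at 3 days. In other analyses the T cell-like level ran from 5.90 to 41.9 CPM, at its lowest under both of these values. In the main clustering it was 35.6 CPM in cluster 8 and 4.34 CPM in cluster 19. The nonclassical monocyte list, detected whole in T cell-like cells of every library, summed to 571 CPM in those of 3 days against 201 CPM at 2 hours.

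Fcgr1 encodes FcγRI, the high-affinity receptor for monomeric IgG. It was read mainly in classical monocyte-like cells, at 139, 60.3 and 92.5 CPM, and in C1q macrophage-like cells at 140 CPM at 3 days. The 2-hour value rests on 14 UMIs and its interval ran from 33.0 to 101 CPM. C1q macrophage-like cells stood above classical monocyte-like cells at 3 days, and these stood above Arg1 macrophage-like cells at 22.7 CPM, which were not apart from dendritic cell-like cells at 16.7 CPM. The first of these orders rests on the split of the macrophage classes. In other analyses Fcgr1 ran from 56.2 to 170 CPM in C1q macrophage-like and from 89.8 to 119 CPM in classical monocyte-like cells, and the order turned at a resolution of 0.4, when cells were named alone and without a cell filter. Nonclassical monocyte-like cells read 35.6, 4.96 and 13.5 CPM, the 2-hour level from 1 UMI. Naive alveolar macrophage-like cells read 27.7 CPM and were not apart from nonclassical monocyte-like cells. Neutrophil-like cells had no Fcgr1 UMI in the naive and 2-hour libraries, which, taking 3 UMIs as the limit that a count of 0 allows, left room for levels of up to 1.34 and 0.777 CPM, and 2.17 CPM at 3 days, not apart from the T cell-like 2.65 CPM by counting error. In classical monocyte-like cells 10.5% had a UMI at 2 hours, at a median of 1790 UMIs, and 59.7% at 3 days, at 17239 UMIs, against 0.0809% and 1.14% of T cell-like cells. Thinned shares were 2.42% and 4.15%, against 0.0407% and 0.190% of T cell-like cells.

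Fcgr2b, the inhibitory receptor, was read in B cell-like cells at 74.0, 89.2 and 111 CPM in the naive, 2-hour and 3-day libraries, which was 14.9, 24.9 and 7.46 times the T cell-like level. Its levels in both macrophage classes at 3 days exceeded the B cell-like one. They were 520 CPM in C1q macrophage-like and 439 CPM in Arg1 macrophage-like cells, which stood apart by counting error. That order rests on the split of the macrophage classes. In other analyses the ranges overlapped, at 463 to 631 CPM in C1q macrophage-like and 411 to 496 CPM in Arg1 macrophage-like cells. Classical monocyte-like cells read 135, 513 and 194 CPM and nonclassical monocyte-like cells 50.4, 243 and 77.9 CPM, highest at 2 hours in either class. Neutrophil-like cells read 3.12, 42.2 and 20.9 CPM, and the naive value was not apart from T cell-like cells at 4.97 CPM. NK cell-like cells read 33.7, 18.5 and 47.7 CPM, above T cell-like cells in each library. Basophil-like cells read 303 CPM at 2 hours and 150 CPM at 3 days. Of Arg1 macrophage-like cells, 85.8% had a Fcgr2b UMI at a median of 9916 UMIs, and 20.3% after thinning, against 9.13% and 0.380% of T cell-like cells. Fcgr2b and Fcgr3 share 166 stretches of 50 bases in their transcripts, 2.92% of those of Fcgr2b and 9.58% of those of Fcgr3. Reads that lie wholly within these stretches fit both genes. An antisense gene, Gm38204, overlaps Fcgr2b on the opposite strand, and its effect on the counts was not tested. Fcgrt has an antisense neighbor too, Gm45669, over 5331 bases.

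Of the UMIs of Fcgr1, Fcgr3, Fcgr4 and Fcgr2b together, the share on the activating genes was compared between classes and libraries. In classical monocyte-like cells it was 76.7% (72.9% to 80.2%) in the naive library, 55.4% (49.2% to 61.5%) at 2 hours and 74.3% (73.5% to 75.2%) at 3 days. Nonclassical monocyte-like cells gave 91.0%, 75.4% and 90.9%. The 2-hour share lay below the other two in both monocyte classes, without overlap of the intervals. Neutrophil-like cells gave 99.0%, 93.1% and 96.3%, likewise lowest at 2 hours. Their share was not computed in other analyses, in which their Fcgr2b level ran from 23.5 to 48.1 CPM at 2 hours. At 3 days it ran from 5.94 to 34.5 CPM. The order with 2 hours lowest was not general. NK cell-like cells gave 61.3%, 75.9% and 65.9%, highest at 2 hours, where the interval (65.3% to 84.6%) overlapped those of the other libraries. Dendritic cell-like cells gave 53.2% (40.1% to 66.0%) at 2 hours and 40.2% (35.8% to 44.7%) at 3 days, and basophil-like cells 47.1% (32.9% to 61.5%) and 66.0% (60.4% to 71.3%). At 3 days the share was 44.7% in Arg1 macrophage-like cells and 53.6% in C1q macrophage-like cells, below every monocyte-like and neutrophil-like value of that library. B cell-like cells gave 4.80%, 23.0% and 15.5%. Neutrophil markers in B cell-like cells summed to 229, 2111 and 1193 CPM in the same order, all 8 detected except Ly6g at 2 hours, and their part in that share was not tested.

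**Figure D2:**
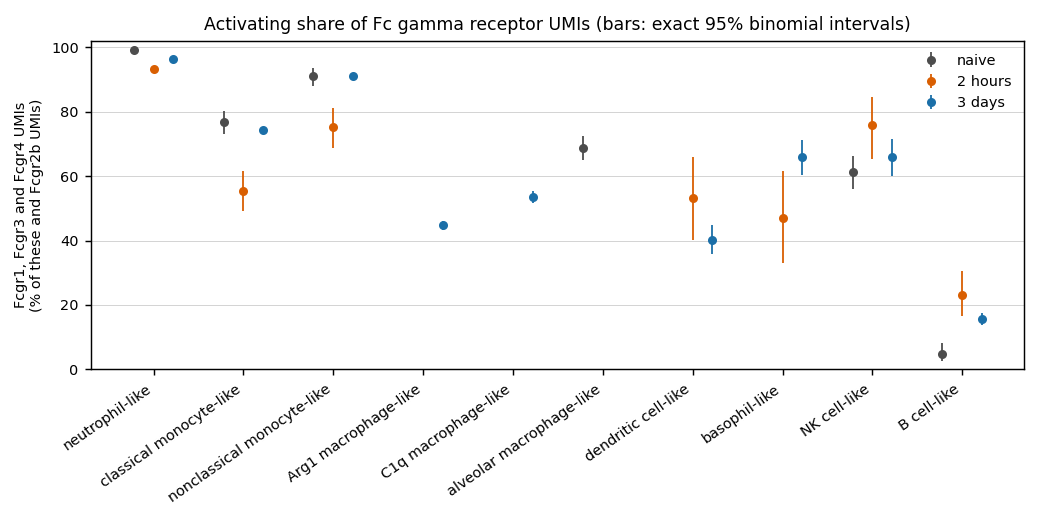
Share of Fcgr1, Fcgr3 and Fcgr4 UMIs among the UMIs of these genes and Fcgr2b (y axis, %), by cell class (x axis) and library (color), with exact 95% binomial bars. In both monocyte-like classes and in neutrophil-like cells the 2-hour point lies below the naive and 3-day points.

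Within a class, the 3-day library was then compared with the 2-hour library over all genes with at least 10 CPM in either, and a gene was counted where the levels differed by 2-fold or more. In neutrophil-like cells 17.0% of 5966 genes were higher at 3 days and 6.75% were lower. Of the 4 members compared there, Fcgr2b was lower, with a log2 ratio of -1.02 (-1.31 to -0.72), and Fcgr3 (-0.12), Fcgr4 (0.02) and Fcer1g (-0.05) lay near 0. The median log2 ratio of all genes compared was 0.31 in this class, so these members lay below the typical gene. The Fcgr2b difference stood at the 2-fold line and missed it in most other analyses. It was -0.18 at a clustering resolution of 1.2, -0.48 without a cell filter, -0.64 when each cell was named alone and -0.67 as a mean over cells, and between -0.97 and -0.99 with called doublets removed, with members kept in the clustering and with another denominator. With the T cell-like level subtracted it was -2.70.

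In classical monocyte-like cells 23.1% of 7569 genes were higher at 3 days and 10.8% lower, with a median log2 ratio of 0.23. Of 6 members, Fcgr2b (-1.40, -1.67 to -1.12) and Fcer1g (-1.12, -1.21 to -1.03) were lower by 2-fold or more, Fcgr3 was lower by less (-0.33, -0.59 to -0.05), and the intervals of Fcgr1 (0.62), Fcgr4 (-0.12) and Fcgrt (-0.32) held 0. At a resolution of 1.2 and with members kept, where the 2-hour class took in the nonclassical cells, these were 1.98 and 1.92 for Fcgr1, -2.12 and -2.15 for Fcgr4, and -1.87 and -1.82 for Fcgrt. Fcgrt was -4.42 with the T cell-like level subtracted, which was no floor for this gene. In nonclassical monocyte-like cells 26.5% of 7858 genes were higher and 9.61% lower, with a median of 0.30. Of 6 members, Fcgr2b was lower (-1.64, -2.09 to -1.17) and Fcgr1 higher (1.44, -1.11 to 6.77), the latter from 1 UMI at 2 hours and not beyond counting error. Fcer1g was lower by less than 2-fold there (-0.70, -0.81 to -0.60), and Fcgr4 (0.15, -0.13 to 0.45) and Fcgr3 (-0.19, -0.62 to 0.28) had intervals that held 0. When cells were named one by one, the Fcgr2b ratio was -1.35 in classical and -0.80 in nonclassical monocyte-like cells, and without a cell filter -1.37 and -0.82, so that the nonclassical value missed 2-fold. In classical monocyte-like cells it missed 2-fold at a resolution of 1.2 (-0.85) and with members kept (-0.80), as did Fcer1g there (-0.91 and -0.92) and when cells were named alone (-0.99). The Arg1 macrophage marker list, of 7 genes with Arg1 and Gpnmb at 0 at 2 hours and none at 0 at 3 days, summed to 4800 CPM in classical monocyte-like cells at 2 hours and 3237 CPM at 3 days, beside these differences, and its part was not tested.

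**Figure D3:**
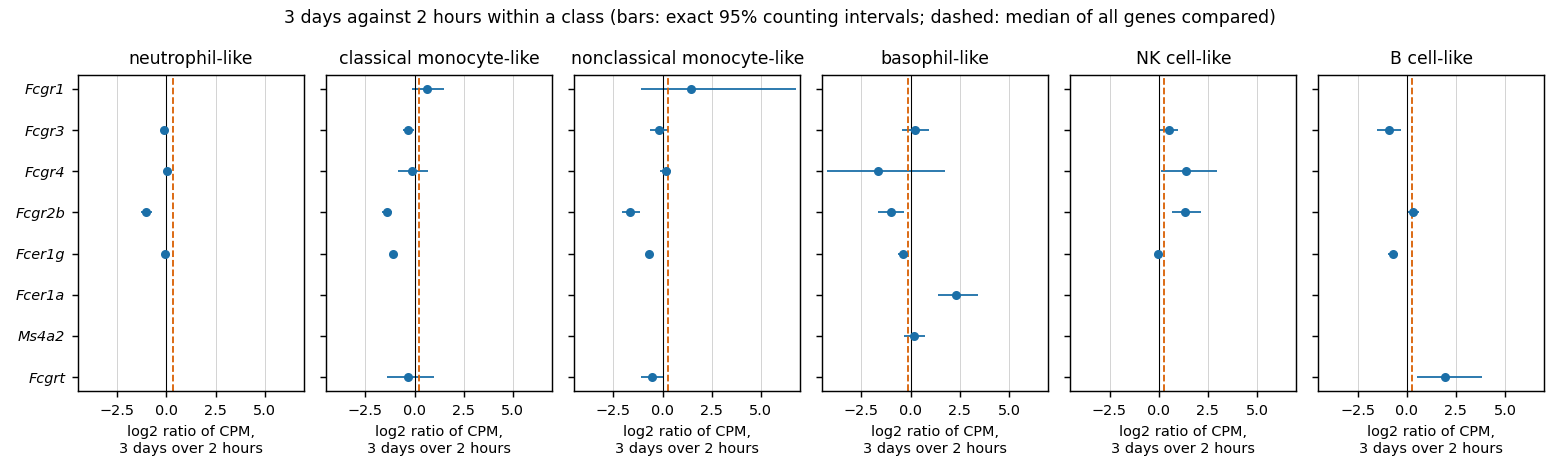
Log2 ratios of CPM, 3 days over 2 hours (x axis), for each Fc receptor gene (y axis) in 6 cell classes, where the gene had at least 10 CPM in either library. Bars are exact 95% counting intervals and the dashed line is the median of all genes compared in that class. Fcgr2b lies left of 0 in neutrophil-like, both monocyte-like and basophil-like cells and right of 0 in NK and B cell-like cells.

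Basophil-like cells, in cluster 24 at both times, carried the IgE receptor chains. Fcer1a had 9 UMIs in 68 cells at 2 hours and 347 in 112 cells at 3 days, which is 101 and 501 CPM. Ms4a2 had 37 and 325 UMIs, or 415 and 469 CPM. In the naive library, 20 basophil-like cells, under the minimum for a comparison, had 48 UMIs of Fcer1a and 56 of Ms4a2. These cells held 98.0%, 100% and 98.3% of all Fcer1a UMIs of the named classes in the naive, 2-hour and 3-day libraries, although they were 20, 68 and 112 of 2412, 9813 and 8050 cells. Against T cell-like cells, whose UMIs of Ms4a2 were 0 in every library, its level was at least 687, 425 and 1476 times higher, taking 3 UMIs as the limit in T cell-like cells. Between 2 hours and 3 days, 26.6% of 7944 genes were higher at 3 days in basophil-like cells and 20.7% lower, with a median log2 ratio of -0.15. Of 6 members, Fcer1a was higher (2.31, 1.37 to 3.45), Fcgr2b lower (-1.01, -1.64 to -0.35) and Fcgr4 lower on 2 UMIs at 2 hours and 5 at 3 days (-1.64, -4.25 to 1.76). The Fcgr4 difference was not beyond counting error and was -0.19 as a mean over cells. In the main clustering the 3-day level of Fcgr4 lay below that of T cell-like cells (ratio 0.271, 0.0874 to 0.642). Fcer1g was lower by less than 2-fold (-0.41, -0.66 to -0.15). The β chain Ms4a2 differed little, with an interval that held 0 (0.18, -0.32 to 0.71), as did that of Fcgr3 (0.20, -0.44 to 0.91). The Fcgr2b ratio of basophil-like cells missed 2-fold as a mean over cells (-0.81), with another denominator (-0.87) and just so with called doublets removed. The Fcer1a ratio lay between 2.31 and 2.50 in 7 other analyses. Both other resolutions and members kept gave the same 68 and 112 cells, so these values could not differ from the main one. Subtraction could change little either, at T cell-like levels of 0 and 0.106 CPM. Cells named alone or without a cell filter left 46 cells at 2 hours, too few for a ratio. Mast cells carry the same receptor, but 4 of 6 mast cell markers, Tpsab1, Tpsb2, Cma1 and Mcpt4, were at 0 in these cells at both times.

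In NK cell-like cells 15.3% of 8416 genes were higher at 3 days and 7.72% lower, with a median log2 ratio of 0.26. Of 4 members, Fcgr2b (1.36, 0.65 to 2.14) and Fcgr4 (1.39, 0.09 to 2.95, from 6 UMIs at 2 hours) were higher by 2-fold or more, Fcgr3 by less (0.51, 0.06 to 0.98), and the interval of Fcer1g held 0 (-0.02, -0.10 to 0.06). The Fcer1g ratio in NK cell-like cells ran from -0.55 to -0.02 in other analyses. Fcgr4 in NK cell-like cells missed 2-fold with called doublets removed (0.94) and, in the main clustering, lay below the T cell-like level at 3 days. In B cell-like cells 14.0% of 8120 genes were higher and 7.52% lower, with a median of 0.26. Of 4 members, Fcgrt was higher (1.92, 0.53 to 3.82, from 4 UMIs at 2 hours), and Fcgr2b differed little (0.32, 0.04 to 0.61). The Fcgrt ratio was 0.56 when cells were named alone and 0.55 without a cell filter, less than 2-fold. Its B cell-like level lay below that of T cell-like cells at 3 days (ratio 0.519, 0.413 to 0.650) and was not apart from it at 2 hours (1.07, 0.24 to 3.82). Fcgr3 (-0.93) and Fcer1g (-0.71) were lower in B cell-like cells by less than 2-fold, and both reversed when each cell was named alone, to 0.45 and 0.095. In T cell-like cells 12.1% of 7931 genes were higher and 7.05% lower, with a median of 0.20. There 3 of 5 members were higher at 3 days, Fcgr2b (2.06), Fcgr4 (2.54) and Fcgrt (2.96), and none was lower. The neutrophil list summed to 1689 CPM in NK cell-like cells at 2 hours and 4127 CPM at 3 days, all 8 detected, and the C1q macrophage list to 32.5 and 204 CPM in NK cell-like and 18.9 and 206 CPM in T cell-like cells. Of the 8 genes of the C1q list, Trem2 was at 0 in NK cell-like cells at 2 hours, C1qa, C1qb, C1qc, Pf4 and Trem2 were at 0 in T cell-like cells at 2 hours, and all were detected at 3 days. The T cell marker list stood at a median log2 ratio of 3.26 over other clusters in NK cell-like cluster 6, that of 2 hours. It was 1.08 and 1.13 in NK cell-like clusters 12 and 20, those of the naive and 3-day libraries. The part of these lists in the differences of the members was not tested.

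Neutrophil-like cells divided into clusters in both transplant libraries. At 2 hours Fcgr3 read 446, 465 and 429 CPM in clusters 0, 5 and 17, without separation. Fcgr2b read 49.7 CPM in cluster 0, with 2939 cells, 19.1 CPM in cluster 5, with 1099 cells, and 54.7 CPM in cluster 17, with 356 cells, and the interval of cluster 5 did not reach those of the others. At 3 days cluster 22, with 253 cells, read 251 CPM of Fcgr3 and 46.0 CPM of Fcgr4, against 432 and 135 CPM in cluster 1, with 2142 cells. Fcgr2b was 47.9 CPM in cluster 22 and 18.0 CPM in cluster 1. The smaller cluster was thus lower in both activating genes and higher in the inhibitory one, while Fcer1g was alike at 1911 and 1887 CPM. The clusters were made without these genes, and their median depths were 4059 and 4467 UMIs.

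**Figure D4:**
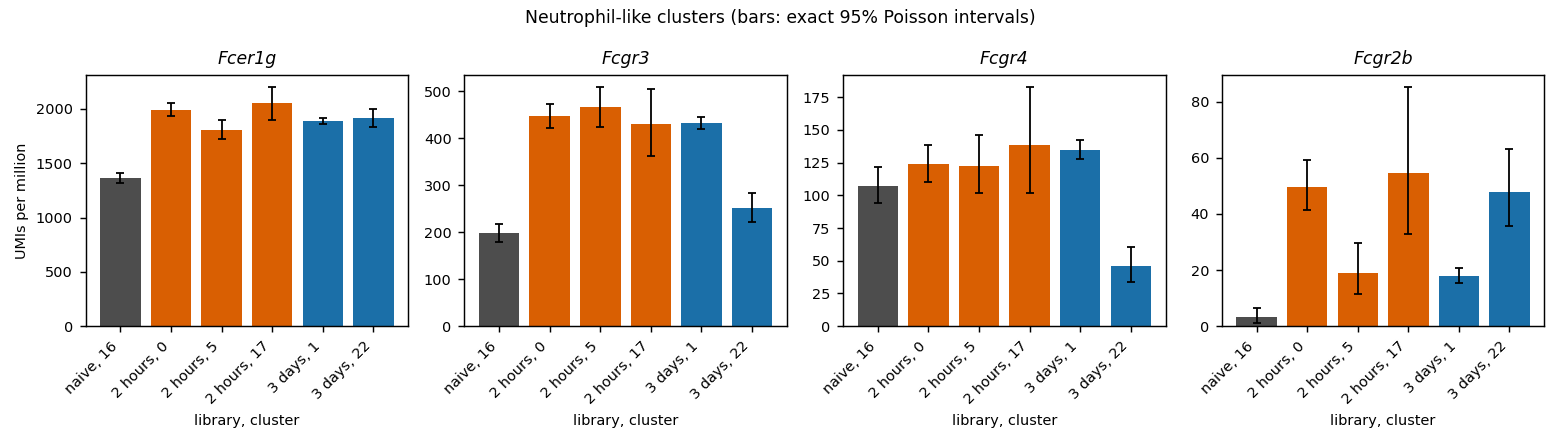
CPM of Fcer1g, Fcgr3, Fcgr4 and Fcgr2b (y axes) in the neutrophil-like clusters of each library (x axis, library and cluster number), with exact 95% Poisson bars. At 3 days, cluster 22 lies below cluster 1 for Fcgr3 and Fcgr4 and above it for Fcgr2b.

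Fcgrt, the FcRn heavy chain, was read at 207 CPM in naive alveolar macrophage-like cells, which held 67.5% of its naive UMIs in the named classes and stood apart from the next class, nonclassical monocyte-like cells, at 41.8 CPM. In the main clustering no transplant library had alveolar macrophage-like cells, and cells named alone gave 5 at 2 hours and 1 at 3 days. The methods give recipient (CD45.1) cells as those sorted, a gate that leaves out cells of the donor lung. Of the Fcgrt UMIs of all naive droplets, 612 of 1705 were in cells that passed the filters. With each cell named alone, 99 naive alveolar macrophage-like cells passed the filters, against 263 without a cell filter. At 3 days dendritic cell-like (109 CPM), nonclassical monocyte-like (104 CPM) and C1q macrophage-like cells (99.4 CPM) were not apart in sequence, and Arg1 macrophage-like cells, at 56.3 CPM, stood below them. At 2 hours nonclassical monocyte-like cells stood first, at 154 CPM from 31 UMIs. Neutrophil-like cells read 1.78 to 2.59 CPM and NK cell-like cells 1.64 to 3.01 CPM in the 3 libraries. Endothelial cells are known for FcRn, and endothelial cell-like cells read 24.9 CPM in the naive library and 35.8 CPM at 3 days, a difference within their intervals. These levels rest on 7 and 22 UMIs. The 3-day level was not apart from that of T cell-like cells (ratio 1.56, 0.959 to 2.43), and the naive one was above theirs (3.55, 1.34 to 7.99). B2m, whose product pairs with FcRn, was higher at 3 days than at 2 hours in neutrophil-like cells, at 1762 against 681 CPM, and by less than 2-fold in the other 6 classes compared.

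Genes of the wider pathway were taken from lists fixed by function. Over the 7 classes compared and with members left out, 197 pairs of a listed gene and a class were tested, of which 48 were 2-fold or more higher at 3 days and 15 lower. Over all genes 12.1% to 26.6% were higher by class and 6.75% to 20.7% lower, with more higher than lower in every class. Among activating signal genes, Lyn, a Src-family kinase that phosphorylates the γ chain and also the inhibitory motif, was lower at 3 days in neutrophil-like (1112 against 429 CPM), classical monocyte-like (1400 against 590 CPM) and nonclassical monocyte-like cells (1444 against 641 CPM). Prkcd, a protein kinase C gene, was higher in the same classes, with 96.6 against 202 CPM in neutrophil-like and 90.5 against 310 CPM in classical monocyte-like cells. Syk, the kinase recruited by the γ chain, read 599 and 522 CPM in neutrophil-like and 177 and 324 CPM in classical monocyte-like cells. In neutrophil-like cells 3 of 12 activating signal genes were higher and 1 lower, in classical monocyte-like cells 3 of 14 and 1, and in nonclassical monocyte-like cells 3 of 15 and 2. Among inhibitory signal genes, Ptpn6, the SHP-1 phosphatase, was higher at 3 days in all classes compared except basophil-like cells, with 93.5 against 312 CPM in neutrophil-like cells. Inpp5d, the phosphatase that Fcgr2b recruits, read 245 and 224 CPM there and 147 and 123 CPM in classical monocyte-like cells, differences of less than 2-fold.

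Of 5 receptors that pair with the γ chain compared in classical monocyte-like cells, Clec4d, Clec4n and Tarm1 were lower at 3 days and Pira2 was higher. Clec4d read 470 and 228 CPM there, Clec4n 194 and 75.7 CPM and Pira2 56.0 and 127 CPM. None of 5 changed by 2-fold in neutrophil-like cells, where Clec4e read 1674 and 1507 CPM. Ncr1, the NKp46 receptor of NK cells, read 98.3 and 234 CPM in NK cell-like cells, whose 2-hour cluster also carried T cell markers as given above. Tyrobp, a sister adaptor of the γ chain, read 4135 and 5595 CPM in neutrophil-like and 5343 and 3254 CPM in classical monocyte-like cells. Of 11 other antibody receptors listed, 4 exceeded 100 CPM in a class, Fcer2a, Fcmr, Fcrl1 and Fcrla, each with its highest level in B cell-like cells. The others were lower, and Trim21 (22.1 CPM) and Fcrl6 were highest in NK cell-like cells. In B cell-like cells Fcmr, for IgM, read 410, 239 and 402 CPM in the naive, 2-hour and 3-day libraries, Fcer2a, the low-affinity IgE receptor CD23, read 212, 116 and 227 CPM, and Fcrla read 289, 240 and 325 CPM. None of these 3 differed by 2-fold between 2 hours and 3 days.

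The genes whose levels ran most like each member were found over 27 groups of a library and a class, among 7493 genes, by Pearson correlation of log2(CPM + 10). Tyrobp came first for Fcer1g (r = 0.974), Cebpb, a myeloid transcription factor, for Fcgr3 (0.934), Ms4a6d for Fcgr1 (0.932), Cd300c2 for Fcgr4 (0.903), Shtn1 for Fcgrt (0.861) and Ccl9, a chemokine, for Fcgr2b (0.789). Treml4, one of the markers by which nonclassical monocyte-like cells were named, was also among the 3 most like Fcgr4 (0.889). Fcer1a and Ms4a2 ran with genes read in basophil-like cells, Htr1b first for Fcer1a (0.997) and Gm35147 first for Ms4a2 (1.0), and also Cd200r3 for Ms4a2 (0.999), which was among the markers of that class. The groups share libraries, depth and the clustering, so the values are descriptions.

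The transplant files also counted 277 antibodies by their oligonucleotide tags. Of these, 9 are isotype controls and the others are named for proteins, with human names. Isotype controls are antibodies of rat, mouse or hamster IgG without an intended target, which can be held by Fc receptors. The study's methods state an anti-CD16/CD32 block for flow cytometry, and the sources used here do not say if it preceded this staining. Isotype controls gave 8.29 UMIs per cell (8.07 to 8.52) in Arg1 macrophage-like cells and 6.51 (6.13 to 6.92) in C1q macrophage-like cells at 3 days. All other classes of both transplant libraries lay between 0.368 and 1.66. Neutrophil-like cells had 0.547 at 2 hours and 0.521 at 3 days, classical monocyte-like cells 0.927 and 0.864, B cell-like cells 0.853 and 0.735, and T cell-like cells 0.592 and 0.553. C1q macrophage-like cells also held the most antibody UMIs per cell at 3 days, 580 against 325 in Arg1 macrophage-like and 112 in neutrophil-like cells. Per antibody UMI, Arg1 macrophage-like cells still stood highest, whereas C1q macrophage-like cells lay below B, NK and T cell-like cells of 2 hours. Without the 1% of cells with most antibody UMIs, 126 of 162 C1q macrophage-like cells remained, at 4.48 isotype UMIs per cell. Of Arg1 macrophage-like cells, 86.8% held at least 1 isotype UMI, with a median of 4 and up to 235 in a cell, against 31.0% of neutrophil-like cells. Single droplets carried many tags in other classes too, up to 220 in a B cell-like cell.

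Isotype UMIs per cell ran in another order than the summed UMIs per cell of Fcgr1, Fcgr2b, Fcgr3 and Fcgr4. At 3 days Arg1 macrophage-like cells held 15.9 times the isotype UMIs per cell of neutrophil-like cells (14.96 to 16.94) and 3.11 times the Fcgr UMIs. Against classical monocyte-like cells they held 9.60 times the isotype UMIs but 0.648 times the Fcgr UMIs, at 8.37 and 12.9 per cell. These classes differed in depth, at medians of 9916 and 17239 UMIs, and scaled to all gene UMIs the direction turned, as the 4 genes summed to 794 CPM in Arg1 macrophage-like and 756 CPM in classical monocyte-like cells, beside 1120 CPM in C1q macrophage-like, 564 CPM in neutrophil-like and 62.0 CPM in T cell-like cells. Neutrophil-like cells held 4.84 times the Fcgr UMIs of T cell-like cells and 0.942 times their isotype UMIs (0.853 to 1.04). At 2 hours the same pair gave 20.9 and 0.924. Antibodies other than isotype controls were also higher in Arg1 macrophage-like than in neutrophil-like cells. The 263 features outside the isotype controls and the 5 most abundant antibodies, CD44, ITGA6, ITGB7, CD45R and LGALS3, gave 1.16 against 0.187 UMIs per cell, a ratio of 6.18 (5.49 to 6.97). All 9 isotype controls were at least 2-fold higher in Arg1 macrophage-like cells, with ratios from 4.81 to 24.3 and a median of 16.8, as were 26 of the 33 other features with at least 10 UMIs (median 8.48). Per UMI of the 263 features the isotype ratio was 2.57. Isotype UMIs per such UMI were 7.16 in Arg1 and 5.02 in C1q macrophage-like cells, against 0.907 to 3.48 in the other classes at 3 days. How much of the isotype signal came from Fc receptors was not tested.

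**Figure D5:**
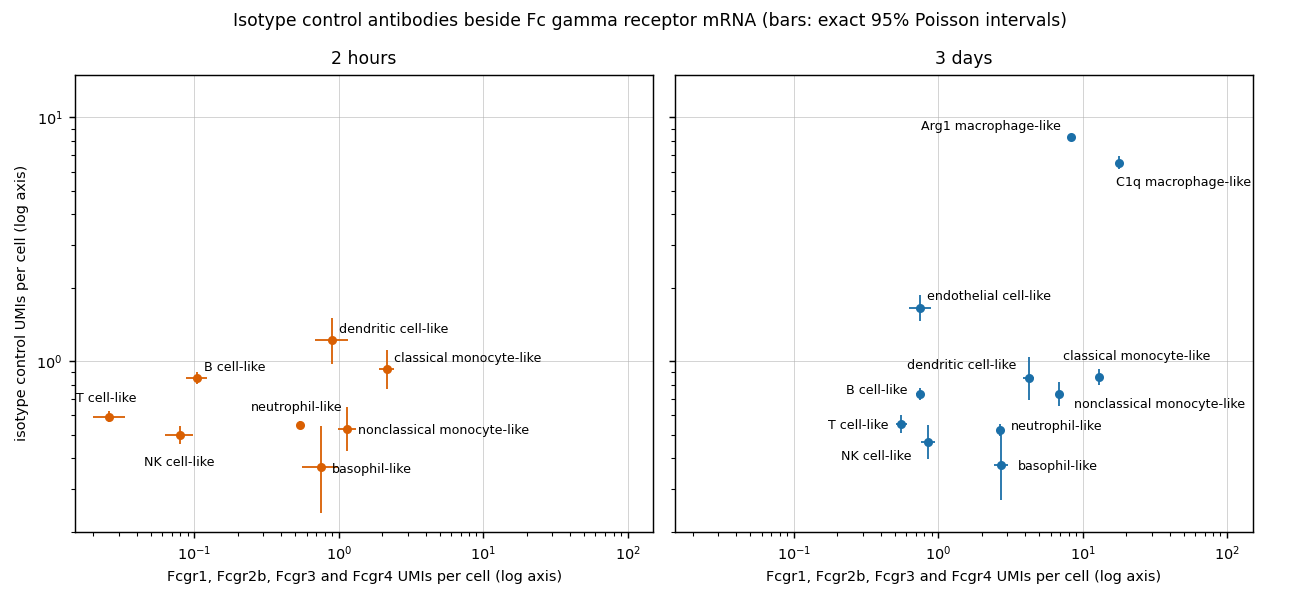
Isotype control UMIs per cell (y axis, log) against summed Fcgr1, Fcgr2b, Fcgr3 and Fcgr4 UMIs per cell (x axis, log) for each cell class at 2 hours and 3 days, with exact 95% Poisson bars on both. Arg1 and C1q macrophage-like cells stand at 8.29 and 6.51 isotype UMIs, while classical monocyte-like cells, at 12.9 Fcgr UMIs, stand at 0.864.

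Antibodies named for Fc receptors themselves, CD64, CD16, CD32, FCER1A and CD23, gave 91 UMIs over all 8324 kept cells of 3 days. Of these, 18 were in neutrophil-like, 16 in Arg1 macrophage-like, 17 in T cell-like and 16 in B cell-like cells. The panel is named for human proteins, and the sources used here do not say if its clones bind the mouse receptors, so no surface level was read from them.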

How the data were processed

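The authors deposited unnormalized UMI counts per gene and droplet called as a cell, and antibody counts for the transplants, from Cell Ranger 7.1.0 (naive) and 6.0.0 (per the file headers). The submitters' processing notes name mm10, Cell Ranger 6 and Seurat 4. The methods name a 3′ kit and the labels a 5′ and a 3′ kit. The filters of the methods were applied (200 to 6000 genes, a mitochondrial share below 10% and fewer than 25000 UMIs). All libraries were clustered with Seurat 5.3.0 and sctransform 0.4.2 under R 4.3.3 (30 components, resolution 0.8) with the 8 members left out. Clusters in which markers of 2 kinds of monocyte or dendritic cell stood out were divided again, and their subclusters were named from the same lists. Scrublet (scanpy 1.11.5) called doublets. The members, gene lists and markers were chosen with earlier results of these data known, and the motifs with the sequences seen. Genes were named if they were members, exceeded 100 CPM in a class of 50 or more cells, or were among the 3 most like a member. Class totals of 5592 genes for neutrophil-like cells were simulated as Poisson counts. There 95.0% of intervals held a true log2 ratio of -2.0 and 93.0% a true 1.0. The intervals assume such counts, so coverage near 95% was built in and checks the calculation only. Spread between cells or mice was not simulated. No p-value was computed. Alternatives were other resolutions, cells named alone, no cell filter, doublets removed, members kept, other denominators, subtraction of T cell-like levels, thinning and, for antibodies, other scalings. The rule of at least 10 UMIs, scaling by 263 other features and leaving out subclusters led by more markers of another type were chosen after seeing the data. Promoters were matched for all 8 genes. Flow cytometry and other experiments were not analysed here.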

Additional observations from a re-analysis of the deposited data

How the results depend on the processing

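No paired analysis was possible because each condition had 1 library. For the same reason no replicate could be left out. In each class 4 to 6 members were compared between 3 days and 2 hours. Over all genes 12.1% to 26.6% were 2-fold or more higher by class and 6.75% to 20.7% lower. Of members 2-fold or more higher at 3 days, 8 in all over the 7 classes, 5 were counted when each cell was named alone and 4 without a cell filter. Of those lower, 6 in all, 1 and 2 were counted in these analyses, and 3 each at a resolution of 0.4, with called doublets removed and as a mean over cells. Fewer classes entered some of these counts. Basophil-like cells at 2 hours were 46, under the minimum of 50, in the first 2 of these analyses, which leaves out 2 of the lower members and Fcer1a. At a resolution of 0.4 the monocyte-like classes of 2 hours had 1 cell each, as 576 cells were named dendritic cell-like instead of 69, which leaves out 3 of the lower members. Of log2 ratios whose interval excluded 0, 7 values changed sign. Fcer1g in neutrophil-like cells was 0.07 and Fcgr3 in classical monocyte-like cells 0.13 at a resolution of 1.2, and the latter was 0.11 with members kept in the clustering. In B cell-like cells named alone Fcgr3 was 0.45 and Fcer1g 0.095, and without a cell filter 0.45 and 0.13. Ratios whose interval held 0 changed sign as well. Fcgr4 in neutrophil-like cells, 0.02, was -0.27 with the T cell-like level subtracted, -0.10 with cells named alone and -0.12 without a cell filter. Fcgrt was 0.23 as a mean over cells in neutrophil-like cells, against -0.44, and 0.35 and 0.40 in classical monocyte-like cells named alone and without a cell filter, against -0.32. The isotype ratio of Arg1 macrophage-like to neutrophil-like cells, 15.9, was 14.4 without the 1% of cells with most antibody UMIs, 5.50 per antibody UMI and 2.57 per UMI of 263 other features. The ratio of Fc receptor antibodies between these classes, 3.38, was 1.17 per antibody UMI and 0.212 divided by the isotype controls. The ratio of median isotype counts could not be formed, as the neutrophil-like median was 0. At a resolution of 1.2 and with members kept, the mixed monocyte cluster of 2 hours was not divided, so that 444 and 451 cells, nonclassical ones included, were classical monocyte-like. The nonclassical class then had no ratio, and at 0.4 neither class had one. Of the other values of ratios and counts, 211 moved by less than the limit set for a change and 32 by more. Of the values of levels, 1427 stayed within the counting interval of the main value and 365 moved outside it. Fcgr4 in naive classical monocyte-like cells, 19.1 CPM, ran from 17.9 to 164 CPM. Fcgr3 in dendritic cell-like cells at 2 hours, 120 CPM, ran from 89.5 to 320 CPM. Fcer1g in endothelial cell-like cells at 3 days, 345 CPM, ran from 39.2 to 392 CPM. The cause of the changes was not tested. Low depth limits the 2-hour library, where Fcgr1 in classical monocyte-like cells and Fcer1a in basophil-like cells rest on 14 and 9 UMIs.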
